A study of Saccharomyces cerevisiae with 24 samples.

Results

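The genes described here are 74 ribosome assembly and rRNA processing factors of budding yeast, Saccharomyces cerevisiae, out of 7126 features measured. They were chosen by name: the standard symbol is UTP, NOP, NOC, NOG, NSA, NUG, RRP, ENP, ESF or DBP followed by a number, and the mean over the 24 libraries is at least 1 FPKM (fragments per kilobase of transcript, scaled to the mapped total of the library, a level per length that can be compared between genes). All 74 features with such a symbol passed that filter, and the lowest mean was 6.65 FPKM, for DBP1. The names fall into 10 families, with 18 UTP, 18 RRP, 17 NOP, 9 DBP and 3 NOC genes, 2 each of ENP, ESF, NOG and NSA, and 1 NUG gene. By known role, 27 act on the large subunit, 20 are other factors of the small subunit, 7 are exosome subunits, 6 belong to the UTP-A complex, 4 to UTP-B, 3 to UTP-C and 4 to the core of the small nucleolar RNPs (snoRNPs). RRP12, a factor of pre-ribosome export, stands alone. The remaining 2, DBP1 and DBP5, share the name of a helicase family but are known for mRNA translation and mRNA export, so the label of ribosome assembly does not hold for them.

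The series compares a wild type and 3 mutants, Mut1, Mut2 and Mut3, before and after 10 or 20 min of salt (0.4 M NaCl), giving 12 groups of 2 libraries each, and by its title asks how the dynamics of protein interaction set the response of the pathway's output. Sln1, a membrane histidine kinase, responds to osmolarity and passes its phosphate to Ypd1. All strains, the wild type included, derive from a W303-1a parent whose SHO1 gene, which encodes the membrane protein of the parallel osmosensing branch, had been replaced by HIS3, and with a qVenus reporter under the STL1 promoter at leu2 marked with LEU2. YPD1 was replaced by a cassette with TRP1 and HPH, and SLN1 by one with URA3 and KanMX. Mut1 carries Ypd1 M20D and Sln1 E1101K, E1110K and S1179D. In Mut2 the same Sln1 is joined with a Ypd1 that has M92K besides M20D. For Mut3 the labels give Sln1 E1101K, L1109K, E1110K and S1179D together with Ypd1 I13D. Mid-log cells in SC medium were used. The libraries of a group are called library 0 and library 1 after their column names.

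Ribosome assembly starts on the nascent precursor rRNA in the nucleolus. The UTP complexes bind its leader, snoRNPs guide its modification and cleavage, helicases and GTPases remodel the particles, and the exosome trims and degrades the pieces left over. In yeast the genes of these factors are known to be transcribed together in growing cells and to be turned down together under stress. Many of their promoters hold 2 short elements, PAC, bound by the repressors Dot6 and Tod6, and RRPE, bound by the repressor Stb3.

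The FPKM carry no read counts, and the depth of the libraries is therefore unknown. The 74 genes held 0.515 to 0.728% of a library's summed FPKM at 0 min, 0.282 to 0.380% at 10 min and 0.204 to 0.273% at 20 min. FPKM are shares of the sequenced RNA, and fewer cells expressing a gene and less RNA per cell cannot be told apart in them. SHO1 was listed at 0 in all 24 libraries, while SLN1 was at 12.4 to 25 and YPD1 at 32.7 to 86.6 FPKM. Of 5 genes of mating type alpha, MATALPHA1 and MATALPHA2 were at 0 in every library, and the 5 summed to 11.6 to 30.1 FPKM, nearly all of it from MF(ALPHA)2. The sum of 3 meiotic genes was 17.4 to 39.7 FPKM. In library 0 of Mut2 at 20 min the 56 features of RNA genes summed to 3080 FPKM, against 200.2 to 536 in the other 23 libraries, so the counts that rest on it are also given without it. The median over the 74 genes of the difference of library 1 from library 0 was below 0 in all 12 groups, by 0.03 to 0.41 on the log2 scale. Whether the paired libraries of a group were grown as separate cultures is not stated, and p-values here reflect no more than the spread between them.

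The upstream sequences are shown first, since the changes described below are read against them. In the 300 bases before the start codon, the PAC core (letters GATGAG, either strand) was present for 60 of the 74 genes (81.1%), against 1148 of 6001 protein-coding genes of the reference (19.1%). The RRPE core (letters AAAAATTTT, either strand) was present for 36 genes (48.6%), against 7.33% of all promoters. Both were found for 30 genes (40.5% against 3.67%) and neither for 8: DBP1, DBP5, ESF2, RRP42, RRP45, RRP46, UTP22 and UTP30. The PAC core lay at a median of 116 bases before the start codon and the RRPE core at 134.5. The 30-base windows below, from reference R64 (sacCer3), are written 5′ to 3′ on the strand of the gene, with the cores in capitals. RRP12, NOG2, UTP23 and UTP6 are shown as the genes that fell most in the wild type, DBP2, UTP20 and RRP8 for both cores close together, and RRP40 and RRP6 as exosome genes with a single kind of core.
RRP12 (chrXVI:529547-529576, plus strand): atatcatCTCATCTCATCgcgcaattagaa
NOG2 (chrXIV:723276-723305, minus strand): ttttgcccgatgCTCATCgcAAAAATTTTT
UTP23 (chrXV:333512-333541, plus strand): tataattatcgtGATGAGcaagaagggaag
UTP6 (chrIV:1358990-1359019, minus strand): aaagatctgggcGATGAGctaaatatcagg
DBP2 (chrXIV:413484-413513, plus strand): CTCATCgcagAAAATTTTTccttcagttta
UTP20 (chrII:227452-227481, plus strand): AAAATTTTTaccGATGAGcattgaaaagtt
RRP8 (chrIV:611974-612003, plus strand): gAAAAATTTTgcGATGAGctcaaaataaga
RRP40 (chrXV:55508-55537, plus strand): atgcttcagcagCTCATCtccagcatttcg
RRP6 (chrXV:326733-326762, plus strand): agggcatcggAAAATTTTTcagtaatgaat
RRP12, NOG2, UTP23 and UTP6 have further RRPE cores outside these windows. A match is a description of letters and not a measured binding site. Among the 65 members that are neither exosome subunits nor mRNA helicases, 57 (87.7%) had the PAC core, and among the 7 exosome subunits 3 did.

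In the untreated wild type the members spanned 3.65 FPKM for DBP1 to 6990 FPKM for NOP10, with a median of 100.5, against a median of 36 over the 6359 tested features. The snoRNP core genes were the most abundant group, with a median of 863 FPKM. The large-subunit genes had a median of 128 FPKM, the exosome subunits 118, UTP-A 87.3, UTP-B 82.8, the other small-subunit factors 75.9 and UTP-C 69.5. NOP10 is only 177 bases long, the shortest of the 74, and levels of so short a transcript depend much on the length used for scaling.

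Nearly the whole set was lower in salt. The groups hold no culture kept without salt for 10 or 20 min, so salt and elapsed time cannot be told apart. A gene is called when its limma adjusted p (Benjamini and Hochberg over the 6359 tested features) is under 0.05, and changes are differences of log2(FPKM + 1). At 10 min in the wild type, 66 of the 74 members were called lower, where 17.6% of all tested features were. No member (0) was called higher, where 1117 of the 6359 features were. The median change was -1.63, against 0.02 over all tested features. At 20 min, 72 were called lower, with 22.5% of features, and 1 higher, with 24.5% of features, and the median was -2.61. The changes at 20 min ran from -4.85 for RRP12 to 1.0 for DBP1. Between 10 and 20 min, 0 members were called higher, where 390 of the 6359 features were. Called lower were 38 members, against 8.08% of features, with a median step of -0.90. With the library number as a block, this last count was 57 (19.0% of features), and without library 1 of the wild type at 20 min it was 23 in all. With the block, 72 members were called lower at 10 min and 73 at 20 min, where 29.8 and 31.9% of features were. At each time 1 member was called higher with the block, where 31.8 and 38.8% of features were. The 3 comparisons share libraries, so they are not independent of each other.

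**Figure D1:**
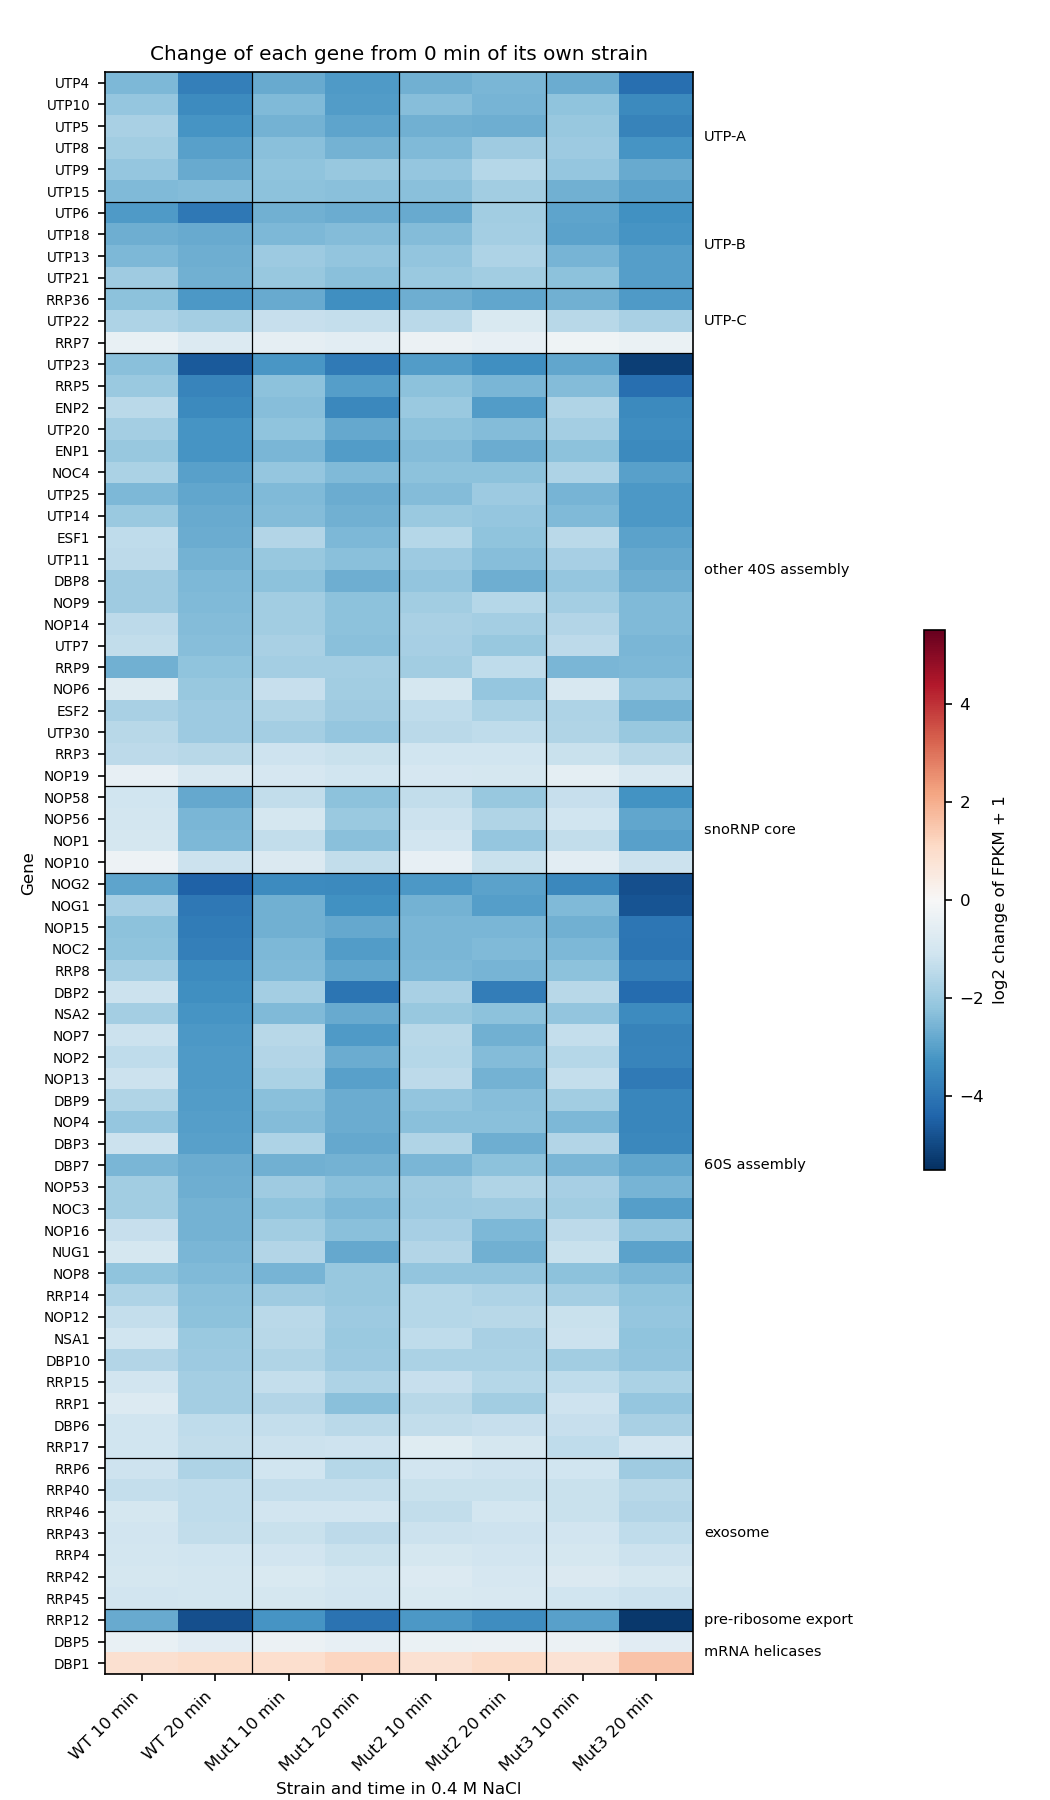
Colours give the log2 change of FPKM + 1 of each of the 74 genes (rows, by role) at 10 and 20 min in 0.4 M NaCl against 0 min of the same strain (columns), blue for lower and red for higher, each from 2 libraries a group. All rows are blue in every column except the row of DBP1, which ran from 0.81 to 1.59.

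The UTP-A proteins (UTP4, UTP5, UTP8, UTP9, UTP10 and UTP15), which bind the precursor first, were all called lower in the wild type at both times, with a median of -2.13 at 10 min and -3.11 at 20 min. UTP4 (YDR324C) stood at 105 and 102 FPKM before salt, at 17.9 and 18 at 10 min and at 7.30 and 5.97 at 20 min. Its values of the 3 times did not overlap, and the change at 20 min was -3.78 ± 0.21 (SE; adjusted p = 3.46e-09). UTP10 went from 83.4 and 62.2 FPKM to 17 and 14.3 and then to 6.37 and 5.13, a change of -3.44 ± 0.31 at 20 min (adjusted p = 4.88e-07). UTP15 gave 73.3 and 110 FPKM at 0 min, 12.5 and 19.8 at 10 min and 15.4 and 17 at 20 min. Its later values thus lay within the range already reached at 10 min, with changes of -2.43 ± 0.26 and -2.40 ± 0.26 (adjusted p = 4.4e-06 and 2.87e-06). From 10 to 20 min, UTP4, UTP5, UTP8 and UTP10 were called lower, and UTP9 and UTP15 were not. For UTP10 this call was lost without library 0 at 10 min (adjusted p = 0.0929), without library 1 at 20 min (adjusted p = 0.108) and with libraries rescaled by median ratios (adjusted p = 0.0549).

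All 4 UTP-B genes (UTP6, UTP13, UTP18 and UTP21), the scaffold that joins the U3 snoRNP to the precursor, were called lower at 10 min with the lowest median of the complexes, -2.58, and the median at 20 min was -2.71. UTP6 (YDR449C, chromosome IV, 1357580 to 1358902, minus strand) went from 88.2 and 49.5 FPKM to 9.57 and 4.76 at 10 min and 4.92 and 2.17 at 20 min. The libraries of UTP6 differ widely within a time, and the ranges at 10 and 20 min overlap. Its change was -3.10 ± 0.55 at 10 min, the largest of the 74 (adjusted p = 0.000463), and -3.95 ± 0.55 at 20 min (adjusted p = 3.42e-05). UTP18 was at 106 and 99.0 FPKM before salt, at 16.9 and 13.2 at 10 min and at 16.1 and 12.7 at 20 min, with changes of -2.70 ± 0.23 and -2.76 ± 0.23 (adjusted p = 4.1e-07 and 1.73e-07). UTP21 was the only UTP-B gene called from 10 to 20 min without the block, at -0.67 ± 0.15 (adjusted p = 0.0086), and the call was lost without library 1 at 10 min or at 20 min (adjusted p = 0.071 and 0.0639).

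Within UTP-C the 3 genes differed in size of change. RRP36 went from 40.8 and 39.0 FPKM to 7.88 and 7.02 and then to 5.49 and 2.19, a change of -3.17 ± 0.36 at 20 min (adjusted p = 4.24e-06). UTP22 fell from 74.4 and 64.5 FPKM to 20.8 and 20.0 at 10 min and was at 21.0 and 16.1 at 20 min (-1.86 ± 0.21, adjusted p = 4.27e-06). RRP7 was at 91.2 and 91.0 FPKM before salt, at 73.7 and 62.1 at 10 min and at 54.0 and 52.6 at 20 min. Its change of -0.76 ± 0.11 (adjusted p = 3.9e-05) was the smallest among the members called lower in the wild type at 20 min, although its values of the 3 times did not overlap. At 10 min its change of -0.42 ± 0.11 (adjusted p = 0.00651) was no longer called without library 1 at 10 min (adjusted p = 0.0928) or with rescaling (adjusted p = 0.067).

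Of the 20 other small-subunit factors, 18 were called lower at 10 min and all 20 at 20 min, with medians of -1.75 and -2.53. UTP23 (YOR004W, chromosome XV, 333592 to 334356, plus strand), which acts with the snoRNA snR30, went from 130 and 133 FPKM to 25.8 and 25.5 and then to 4.73 and 4.01. The libraries of a time were close together, and the change was -2.31 ± 0.21 at 10 min and -4.63 ± 0.21 at 20 min (adjusted p = 7.79e-07 and 3.8e-10). RRP5, a large RNA-binding protein needed for cleavages toward both subunits, fell from 92.3 and 78.2 FPKM to 20.9 and 18.5 and to 7.70 and 4.37, a change of -3.65 ± 0.34 at 20 min (adjusted p = 6.05e-07). RRP9, the protein specific to the U3 snoRNP, was at 83.0 and 114 FPKM before salt, at 13.0 and 16.9 at 10 min and at 18.6 and 22.3 at 20 min. Both of its 20 min values lay above both of its 10 min values, and the step of 0.43 ± 0.19 was not called (adjusted p = 0.156) but was called higher with the block (adjusted p = 0.00225). NOP19 had the smallest change of the group, from 67.1 and 59.7 FPKM to 45.8 and 45.1 and then 35.5 and 33.3 (-0.86 ± 0.19 at 20 min, adjusted p = 0.00207). NOP6 and NOP19 were the 2 of the group not called at 10 min, and both were called lower with the block.

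RRP12 (YPL012W, chromosome XVI, 529723 to 533409, plus strand), a HEAT-repeat protein that works in the export of both subunits, had the largest change of all 74 at 20 min. It stood at 107 and 118 FPKM before salt, at 15.4 and 15.9 at 10 min and at 3.62 and 2.33 at 20 min. The values fell at each time without overlap, by 2.77 ± 0.18 and then by 4.85 ± 0.18 on the log2 scale relative to 0 min (adjusted p = 2.97e-08 and 6.09e-11).

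More of the change of the snoRNP core genes came after 10 min. NOP1 (fibrillarin, the methyltransferase of box C/D snoRNPs), NOP56 and NOP58 (its partners) and NOP10 (a box H/ACA protein) had a median of -0.97 at 10 min, with 2 of 4 called lower, and of -2.49 at 20 min, with all 4 called. All 4 were also called lower from 10 to 20 min, but NOP56 (adjusted p = 0.0454) and NOP10 (adjusted p = 0.0203) lost that call without any 1 of the 4 libraries (adjusted p = 0.0585 to 0.329 and 0.0692 to 0.118). NOP1 went from 1046 and 1355 FPKM to 537 and 709 and then to 198 and 229, without overlap between times. Its changes were -0.95 ± 0.22 at 10 min and -2.48 ± 0.22 at 20 min (adjusted p = 0.00328 and 3.07e-07). NOP58 fell from 607 and 443 FPKM to 263 and 218 and to 88.1 and 61.0, and its call at 10 min (-1.11 ± 0.40, adjusted p = 0.0436) was lost whenever any 1 of the 4 libraries was left out (adjusted p = 0.0588 to 0.228) and with rescaling (adjusted p = 0.102). NOP56 was at 562 and 381 FPKM, 256 and 212 and 107 and 62.0, a change at 10 min of -0.99 ± 0.47 that was not called in the wild type (adjusted p = 0.12) or in any mutant. With the block, NOP56 was called lower at 10 min in every strain. NOP10 was at 6603 and 7377 FPKM before salt, at 5504 and 6035 at 10 min and at 2954 and 3277 at 20 min, and was called at 20 min (-1.17 ± 0.23, adjusted p = 0.000832).

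All 27 large-subunit genes were called lower in the wild type at 20 min, and 25 at 10 min. Their median was -1.61 at 10 min and -2.74 at 20 min, and 16 were called lower between these times, with a median step of -1.33. NOG2 and NOG1, GTPases that bind precursors of the large subunit, changed most. NOG2 (YNR053C, chromosome XIV, 721120 to 723112, minus strand) was at 185 and 213 FPKM, then 26.6 and 25.3, then 9.02 and 7.52, a change of -4.43 ± 0.19 at 20 min (adjusted p = 2.32e-10). Its transcript overlaps the snoRNA gene SNR191 in the reference, so its level is uncertain. NOG1 went from 476 and 436 FPKM to 129 and 123 and then to 34.9 and 23.7 (-3.94 ± 0.27, adjusted p = 2.36e-08). NUG1, a further GTPase, was at 227 and 219 FPKM, at 116 and 109 and at 41.7 and 35.7, so more of its change came after 10 min: -0.98 ± 0.23 at 10 min and -2.50 ± 0.23 at 20 min (adjusted p = 0.0045 and 6.38e-07). DBP2, a DEAD-box helicase of rRNA processing and of transcription, was at 896 and 788 FPKM, 380 and 351 and 87.9 and 71.1. Its change of -1.20 ± 0.32 at 10 min became -3.39 ± 0.32 at 20 min (adjusted p = 0.00886 and 6.46e-07). At 10 min its call was lost without library 0 at 0 min (adjusted p = 0.0598) or without library 1 at 10 min (adjusted p = 0.0528). RRP17, an exonuclease of the internal spacer, had the smallest change of the 27, from 23.6 and 24.0 FPKM to 11.7 and 9.95 and to 9.50 and 8.22 (-1.34 ± 0.26 at 20 min, adjusted p = 0.000657). Among the other helicases, DBP7 went to 9.68 and 9.13 FPKM by 10 min from 58.3 and 59.4 and was at 9.12 and 6.98 at 20 min, while DBP3 went from 238 and 201 to 107 and 88.5 and then to 30.2 and 23.4.

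The 7 exosome subunits had a smaller median change at 20 min than any other group of ribosome factors, and most of it was there by 10 min. All 7 were called lower at both times, with a median of -1.04 at 10 min, a median of -1.34 at 20 min and 1 called between the times. RRP40 (YOL142W, chromosome XV, 55558 to 56280, plus strand), a protein of the exosome cap, was at 155 and 156 FPKM, then 60.7 and 63.0, then 57.1 and 59.7. The last 4 values lie within a narrow band, and the changes were -1.32 ± 0.10 and -1.40 ± 0.10 (adjusted p = 1.94e-07 and 5.44e-08). RRP45, of the ring, was at 72.0 and 102 FPKM, 35.7 and 45.4 and 38.7 and 45.9 (-1.0 ± 0.27 at 20 min, adjusted p = 0.00671). This call was lost without library 1 at 0 min (adjusted p = 0.0736) or library 0 at 20 min (adjusted p = 0.0516). RRP6, the nuclear exonuclease, went on to fall: 50.5 and 65.5 FPKM, then 22.1 and 30.5, then 16.9 and 17, a change of -1.70 ± 0.17 (adjusted p = 9.27e-07) with a step of -0.58 ± 0.17 after 10 min (adjusted p = 0.0307). This step was not called without library 1 at 10 min or without either library at 20 min (adjusted p = 0.266, 0.119 and 0.135).

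DBP1 (YPL119C, chromosome XVI, 324411 to 326264, minus strand), a helicase close to the translation factor Ded1, was the only member called higher. In the wild type it stood at 2.88 and 4.43 FPKM before salt, at 6.16 and 8.99 at 10 min and at 7.12 and 9.39 at 20 min, so the salt values lay above both untreated ones. The change of 0.88 ± 0.36 at 10 min was not called (adjusted p = 0.0703, and adjusted p = 2.45e-05 with the block), and that of 1.0 ± 0.36 at 20 min was (adjusted p = 0.0325, and adjusted p = 4.73e-06 with the block). The latter call was lost without library 0 at 0 min (adjusted p = 0.205) or library 1 at 20 min (adjusted p = 0.18), and the same libraries decided it in Mut1 (adjusted p = 0.113 and 0.184) and Mut2 (adjusted p = 0.234 and 0.169). DBP1 was called higher at 20 min in Mut1 (1.16 ± 0.36, adjusted p = 0.0176), Mut2 (1.07 ± 0.36, adjusted p = 0.0282) and Mut3 (1.59 ± 0.36, adjusted p = 0.00197) as well, each time as the 1 member called higher, where 20.2, 21.5 and 25.3% of features were. With the block these adjusted p were 1.2e-06, 2.97e-06 and 3.11e-08. From 10 to 20 min DBP1 was called higher in Mut3 with the block (0.78, adjusted p = 0.000184), where 24.2% of features were. DBP5, the mRNA export helicase, was at 169 and 129 FPKM, 121 and 99.5 and 109 and 84.7, and was not called (-0.61 ± 0.28 at 20 min, adjusted p = 0.0861, but adjusted p = 2.96e-06 with the block).

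**Figure D2:**
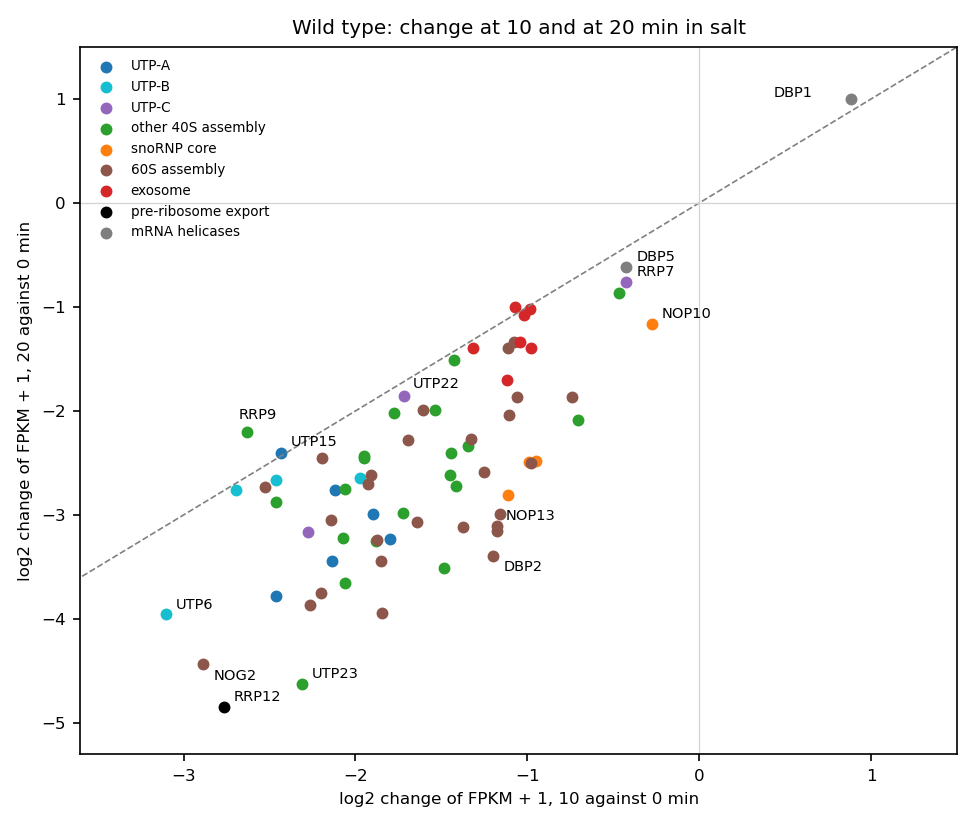
Each point is 1 of the 74 genes in the wild type, with the log2 change of FPKM + 1 at 10 min on the x axis and at 20 min on the y axis, both against 0 min, coloured by role; the dashed line marks equal change. Most genes lie below the line, the exosome subunits sit near it, between -1.70 and -1.0 at 20 min, and RRP12, UTP23 and NOG2 lie lowest.

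By name family, all 18 UTP and all 18 RRP genes were called lower in the wild type at both times, but their medians at 20 min were -2.76 and -1.60. The RRP family holds the exosome subunits next to RRP12, RRP5 and RRP8. Of the 17 NOP genes, 11 were called lower at 10 min and 17 at 20 min, with medians of -1.25 and -2.49. The 3 NOC genes had a median of -2.98 at 20 min, the ENP pair -3.37, the NOG pair -4.19, the NSA pair -2.64 and the ESF pair -2.37, all called lower. Of the 9 DBP genes, 7 were called lower and 1 higher at 20 min.

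Other genes of the pathway, with names outside the pattern, were lower in salt in the wild type as well. Of 90 such genes tested, 79 were called lower at 10 min and 87 at 20 min, 0 were called higher, and the medians were -1.70 and -2.76. Of the 6359 tested features, 17.6 and 22.5% were called lower at these times, and 1117 and 1555 were called higher. All 32 small-subunit factors and all 39 large-subunit factors of these lists were called lower at 20 min, with medians of -2.79 and -3.14. MRD1 (-4.10 ± 0.22, adjusted p = 1.93e-09) and the helicase gene DHR2 (-3.81 ± 0.18, adjusted p = 7.01e-10) changed most in the former, IPI3 (-3.93 ± 0.24, adjusted p = 6.41e-09) and PUF6 (-3.91 ± 0.53, adjusted p = 2.76e-05) in the latter. Of 9 other snoRNP and nucleolar proteins, 8 were called lower, NSR1 at -4.33 ± 0.21 (adjusted p = 8.93e-10), and SRP40 was not called at -2.99 ± 1.90 (adjusted p = 0.22). Of 10 other exosome subunits and cofactors, 8 were called lower, with a median of -0.90. AIR1 (-2.66 ± 0.30, adjusted p = 3.63e-06) and TRF5 (-1.54 ± 0.22, adjusted p = 3.95e-05), of the TRAMP complex that hands RNA to the exosome, were among them. CSL4 (-0.53 ± 0.29, adjusted p = 0.149) and AIR2 (0.45 ± 0.41, adjusted p = 0.404) were not called.

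Read against the upstream letters, the members with both cores had the lowest median at 20 min in the wild type, -3.19 over 30 genes (range -4.85 to -2.28). The 30 genes with the PAC core alone had a median of -2.39, the 6 with the RRPE core alone -2.22 and the 8 with neither -1.21. The ranges of these classes overlap: UTP4 has the RRPE core alone and changed by -3.78, while NOP19, with the PAC core alone, changed by -0.86. Without the exosome subunits and the mRNA helicases, the medians were -3.19 for both cores and -1.99 for the 3 genes with neither (ESF2, UTP22 and UTP30). At 10 min in the wild type, the medians of these same genes lay close together, at -1.92 for both cores and -1.72 for neither. In Mut3 at 20 min the medians over all members were -3.51 with both cores and -1.38 with neither, and -2.07 with neither once those roles were left out. These are descriptions over genes, which are not independent replicates.

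**Figure D3:**
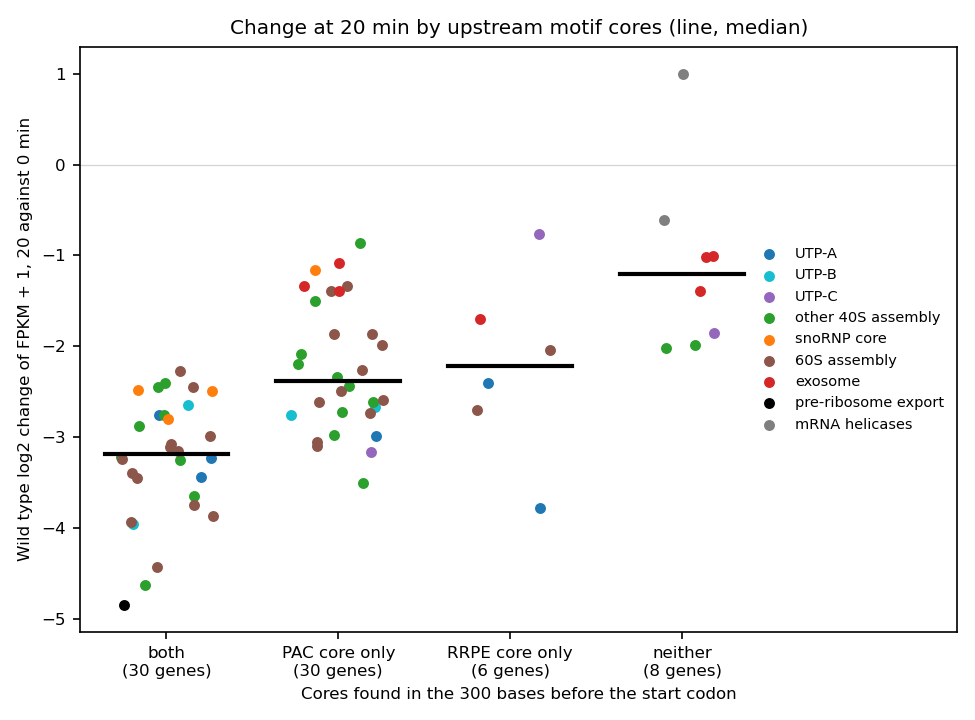
Points are the 74 genes, placed by the cores found in the 300 bases before the start codon (x axis) and by the log2 change of FPKM + 1 at 20 min against 0 min in the wild type (y axis), with a bar at the median of each class. The medians are -3.19, -2.39, -2.22 and -1.21 from left to right, and the classes overlap.

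Before salt most members were slightly lower in the mutants than in the wild type, but limma called none (0) between a mutant and the wild type at 0 min in either direction, where 4.62, 4.51 and 1.62% of features were called for Mut1, Mut2 and Mut3, and 1, 3 and 1 members had an unadjusted p under 0.05. The median differences were -0.18 in each mutant, and 68, 66 and 68 of the 74 genes lay below the wild type. With the block 3, 7 and 1 members were called lower and 0 higher, where 18.1, 20.9 and 7.91% of features were called either way. The features called lower alone were 6.49, 8.68 and 2.61%. The share of members called lower lay below these in Mut1 and Mut3 and slightly above in Mut2. Among the members called were UTP30 in Mut2 (-0.63, adjusted p = 0.00345), UTP10 in Mut3 (-0.50, adjusted p = 0.0118) and NOP1 in Mut1 (-0.48, adjusted p = 0.0261). The 3 mutants were compared with the same wild-type libraries.

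The same genes were lower in salt in all 3 mutants. At 10 min 70 members were called lower in Mut1 (15.5% of features), 67 in Mut2 (15.4%) and 66 in Mut3 (16.7%), with medians of -1.91, -1.82 and -1.70. At 20 min 72 were called lower in each mutant, where 19.5, 18.2 and 22.4% of features were, with medians of -2.30, -1.98 and -2.89. Without library 0 of Mut2 at 20 min, 69 members were called lower there. Across the 4 strains, 63 members were called lower at 10 min in every strain and 72 at 20 min. Without the block, the 2 not called lower at 20 min were DBP1 and DBP5. The share of all features called lower in every strain was not computed. It cannot exceed the smallest share of a single strain, 15.4% at 10 min and 18.2% at 20 min. With the block, 73, 72 and 73 members were called lower at 10 min in Mut1, Mut2 and Mut3 (26.7, 27.4 and 28.2% of features). At 20 min 73 were in each mutant (29.6, 29.1 and 31.0% of features). DBP5 was among them at 20 min, at -0.47 in Mut1, -0.34 in Mut2 and -0.62 in Mut3, as in the wild type. Over the 74 genes, the changes at 20 min in the wild type and in Mut3 had a Pearson r of 0.975, those in the wild type and in Mut2 an r of 0.90, as descriptions over genes.

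The strains differed in what happened after 10 min. In the wild type and Mut3 most members went on falling, with median steps of -0.90 and -0.88 from 10 to 20 min, 40 members called lower in Mut3 (8% of features), and 28 called in these 2 strains but not in the others (20 with the block). In Mut1 the median step was -0.32 with 9 members called lower (1.62% of features), and in Mut2 it was -0.08 with 4 called lower (2.17%). With the block the counts were 57 in Mut3 (18.1% of features), 29 in Mut1 (10.0%) and 18 in Mut2 (13.7%). Without 1 library of Mut1 the count there fell to between 0 and 7, to 0 without library 1 at 20 min, to 2 without library 0 at 10 min and to 4 without library 1 at 10 min. Without library 0 of Mut2 at 10 min that strain's count fell to 0, and without library 0 at 20 min it was 4. The 4 members called lower after 10 min in all strains were DBP2, NOP1, NOP2 and NUG1, and 33 were called in none. With the block 16 members were called lower in all strains, these 4 among them, and 10 in none. The share of all features with the same combinations of calls was not computed. For all strains it cannot exceed 1.62% (10.0% with the block), and for the wild type and Mut3 alone 8% (18.1% with the block). A call in some strains and not in others is no test of a difference between them. NUG1 lost its call in Mut1 and Mut2 with rescaling (adjusted p = 0.0836 and 0.104), in Mut1 without library 0 at 10 min or library 1 at 20 min (adjusted p = 0.168 and 0.199), and in Mut2 without the libraries of the same numbers and times (adjusted p = 0.246 and 0.143).

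In Mut2, 10 members were called higher from 10 to 20 min with the block and 0 without it. This is no larger a share than the 14.7% of all features called higher there with the block, so it is not a result about these genes. They were UTP6, UTP8, UTP9, UTP13, UTP15, UTP18, UTP22, UTP25, NOP9 and RRP9, with steps of 0.34 (NOP9) to 0.86 (UTP6). In Mut2 UTP22 was at 65.5 and 47.2 FPKM before salt, at 19.6 and 18.8 at 10 min and at 37.7 and 25 at 20 min, so both later values lay above those at 10 min. UTP6 was at 68.2 and 34.5 FPKM, then 10.4 and 3.59, then 18.9 and 7.58, and here the ranges of the 2 later times overlap.

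**Figure D4:**
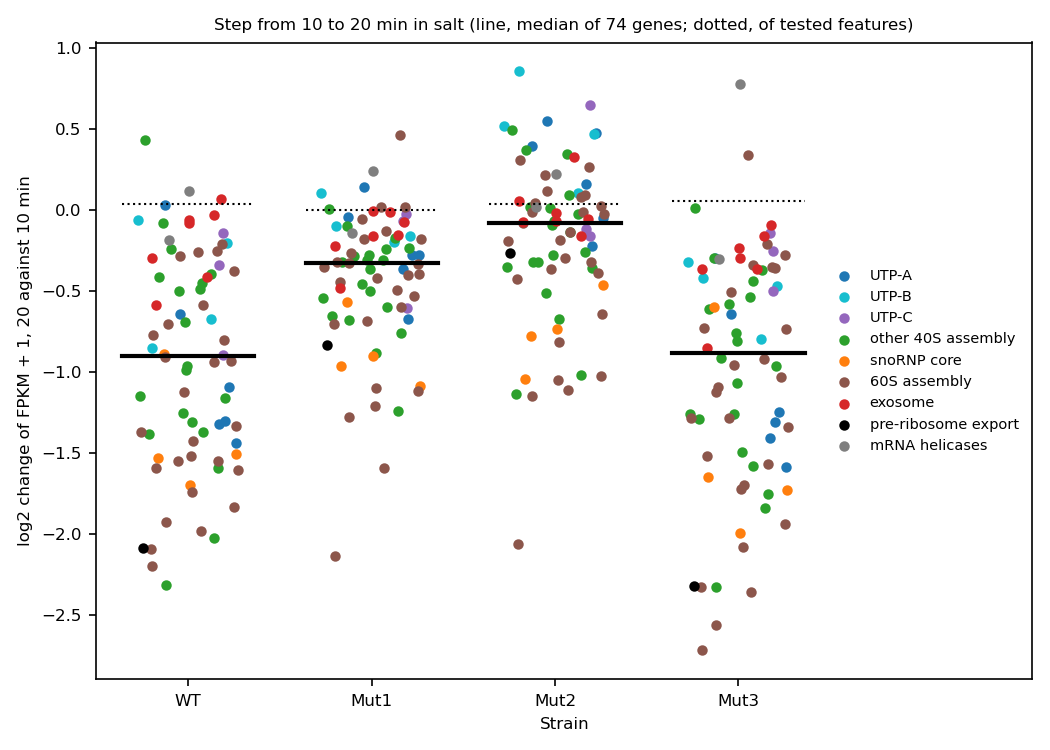
Points are the 74 genes by strain (x axis), with the log2 change of FPKM + 1 from 10 to 20 min in salt on the y axis, coloured by role; the bar is the median of the 74 and the dotted line that of all tested features. The medians are -0.90 in the wild type, -0.32 in Mut1, -0.08 in Mut2 and -0.88 in Mut3.

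Tests of the difference between strains bear on fewer single genes. For the step from 10 to 20 min, a comparison added after the data were seen, 3 members were called higher in Mut1 than in the wild type (0.142% of features), UTP23 (1.64 ± 0.30), NOG2 (1.49 ± 0.27) and UTP5 (1.16 ± 0.20). In Mut2 6 were (0.503% of features), UTP23 (2.00), RRP12 (1.82), NOG2 (1.76), NOP15 (1.58), UTP4 (1.48) and UTP5 (1.39), while in Mut3 0 were called (0.0315% of features in either direction, with 1 member at an unadjusted p under 0.05 and 0 called with the block). The median differences of the step were 0.44, 0.74 and -0.10. With the block 24 members were called in Mut1 (6.24% of features) and 45 in Mut2 (8.79%). Mut3 minus Mut1 had 3 members called lower, UTP23, RRP12 and UTP5 (0.252% of features), and 24 with the block, where 4.01% of features were. The Mut1 count was 0 without any 1 of 7 of the 8 libraries and 2 without library 1 of Mut1 at 20 min. That of Mut2 ranged from 4 to 11 and was 4 without library 0 of Mut2 at 20 min. The Mut3 minus Mut1 count ranged from 0 to 3. The steps in Mut1, Mut2 and Mut3 are set against the same wild-type libraries.

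For the change from 0 to 20 min, 6 members were called higher (a smaller fall) in Mut2 than in the wild type, where 1.43% of features were, and 37 with the block (12.5% of features). The 6 were NOG2 (1.51 ± 0.27, adjusted p = 0.00602), RRP12 (1.43 ± 0.25, adjusted p = 0.00591), NOP15 (1.35 ± 0.31, adjusted p = 0.0265), UTP4 (1.28 ± 0.30, adjusted p = 0.0314), UTP23 (1.25 ± 0.30, adjusted p = 0.0319) and UTP25 (0.86 ± 0.17, adjusted p = 0.0124). The median difference over the 74 genes was 0.53, and 67 of them lay on the higher side. Leaving out 1 library gave counts of 2 to 11: 2 without library 0 of Mut2 at 20 min (RRP12 and NOG2 remained), without library 1 of Mut2 at 0 min or without library 0 of the wild type at 0 min, 3 without library 1 of the wild type at 0 or at 20 min, and 11 without library 1 of Mut2 at 20 min. In Mut1 0 members were called against the wild type (2.5% of features, 5 members at an unadjusted p under 0.05), with a median difference of 0.19. With the block 8 were called in Mut1 (15.5% of features), 1 lower and 7 higher, where 8.85% of features were lower and 6.62% higher. The share of members called higher there lay above that of features, and the share called lower lay below. In Mut3 0 were called (0.299% of features, 6 members at an unadjusted p under 0.05), with a median of -0.21. With the block 3 were called lower and 0 higher in Mut3, where 1.93 and 1.79% of features were (3.73% either way). The share of members called lower there lay above that of features, but it rests on 3 genes. Between Mut2 and Mut1 0 were called with or without the block (0% of features, 5 members at an unadjusted p under 0.05), with differences of -0.22 to 0.82. Mut3 fell further than Mut1 in 3 members (0.503% of features), NOG2 (-1.33 ± 0.27, adjusted p = 0.0239), UTP23 (-1.28 ± 0.30, adjusted p = 0.0492) and RRP12 (-1.23 ± 0.25, adjusted p = 0.0258), and in 26 with the block (5.32% of features). That count was 2 without library 0 of Mut3 at 20 min and 0 without library 0 or 1 of Mut1 or of Mut3 at 0 min, without library 0 of Mut1 at 20 min and without library 1 of Mut3 at 20 min.

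For the change from 0 to 10 min, UTP5, of UTP-A, was called in Mut1 (-0.81 ± 0.20, adjusted p = 0.0436) and in Mut2 (-0.82 ± 0.20, adjusted p = 0.0417) as falling further than in the wild type, the 1 member called in each, where 1.7 and 1.73% of features were, so the share of members was not above that of all features. The call was lost in Mut1 without any 1 of the 8 libraries concerned and in Mut2 without 6 of 8: either library of the wild type or of Mut2 at 0 min, or library 1 of the wild type or of Mut2 at 10 min. With the block 9 members were called lower and 1 higher in Mut1, where 8.98% of features were called lower and 7.41% higher. In Mut2 6 were called lower and 1 higher with the block, where 8.37 and 7.19% of features were. Among those in Mut1 were RRP1, a large-subunit factor (-0.87, adjusted p = 0.000247 with the block), and RRP9 (0.78, adjusted p = 0.00148 with the block). For Mut3 minus the wild type 0 members were called (0.189% of features, 1 member at an unadjusted p under 0.05, and 0 with the block). For Mut2 minus Mut1 0 were called with or without the block (0.0157% of features, 0 members at an unadjusted p under 0.05), and for Mut3 minus Mut1 0 were called (0.692% of features, 2 at an unadjusted p under 0.05) and 2 with the block (6.53%).

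The values behind these differences can be read in single libraries. RRP12 was at 84.3 and 96 FPKM before salt in Mut1, 91.2 and 86.7 in Mut2 and 78.1 and 86.6 in Mut3, all below the wild type's 107 and 118. At 10 min the mutants were at 8.74 and 8.60, 9.72 and 8.56, and 10.2 and 9.01 FPKM, again below the wild type's 15.4 and 15.9. At 20 min Mut3 was lowest at 1.09 and 1.15 FPKM, then the wild type at 3.62 and 2.33, then Mut1 at 4.99 and 3.93, then Mut2 at 9.19 and 5.93, with no overlap between neighbours in this order. The fall of RRP12 from 0 to 20 min as a ratio of FPKM + 1 was thus 39.3-fold for Mut3, 28.8-fold for the wild type, 16.7-fold for Mut1 and 10.7-fold for Mut2.

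UTP23 gave the same order. At 10 min it was at 11.8 and 10.1 FPKM in Mut1, 14.4 and 11.5 in Mut2 and 15.3 and 13.1 in Mut3, against 25.8 and 25.5 in the wild type. At 20 min it was at 2.80 and 1.42 FPKM in Mut3, 4.73 and 4.01 in the wild type, 7.82 and 5.28 in Mut1 and 11.7 and 8.72 in Mut2, again without overlap between neighbours.

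NOG2, uncertain as said, was at 19.0 and 13.7 FPKM in Mut1 at 10 min and at 17.2 and 13.9 at 20 min, so its values at the 2 times overlap there. In Mut2 it went from 23.4 and 18.8 to 27.0 and 22.2 FPKM, with overlap too. In Mut3 it fell from 14.8 and 13.7 to 6.53 and 4.20 FPKM, as it did in the wild type from 26.6 and 25.3 to 9.02 and 7.52. UTP5 was at 17.6 and 16.9 FPKM and then 15.5 and 12.7 in Mut1, 19.9 and 16.4 and then 19.3 and 15.7 in Mut2, 25.6 and 23.7 and then 8.21 and 6.92 in Mut3, and 33.9 and 39.7 and then 12.9 and 12.9 in the wild type. The UTP5 values at 10 and 20 min thus overlap in Mut2 and not in Mut1, and for both genes they do not overlap in the wild type and in Mut3.

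Not all members followed this. NOP1 went on falling in every strain, from 297 and 374 to 166 and 175 FPKM in Mut1, from 437 and 403 to 189 and 220 in Mut2 and from 404 and 444 to 125 and 144 in Mut3. Its step was called in Mut1 (-0.96 ± 0.22, adjusted p = 0.029), Mut2 (-1.04 ± 0.22, adjusted p = 0.0142) and Mut3 (-1.65 ± 0.22, adjusted p = 0.00022). In Mut1 the call was lost without any 1 of the 4 libraries (adjusted p = 0.0891 to 0.243), and in Mut2 without library 0 at 10 or at 20 min (adjusted p = 0.131 and 0.104). DBP2 had a step of -2.13 ± 0.32 in Mut1, -2.06 ± 0.32 in Mut2 and -2.72 ± 0.32 in Mut3 (adjusted p = 0.00264, 0.00313 and 9.2e-05). The call was lost without library 1 at 20 min in Mut1 (adjusted p = 0.0591) and without library 0 at 10 min in Mut2 (adjusted p = 0.0586). RRP40 was at 56.3 and 63.1 FPKM at 20 min in Mut1 and at 61.0 and 61.0 in Mut2, within or near the 57.1 and 59.7 of the wild type, and at 48.4 and 48.2 in Mut3. DBP1 was highest in Mut3, at 11.1 and 15.5 FPKM at 20 min, against 6.29 and 11.0 in Mut1 and 6.24 and 8.71 in Mut2.

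**Figure D5:**
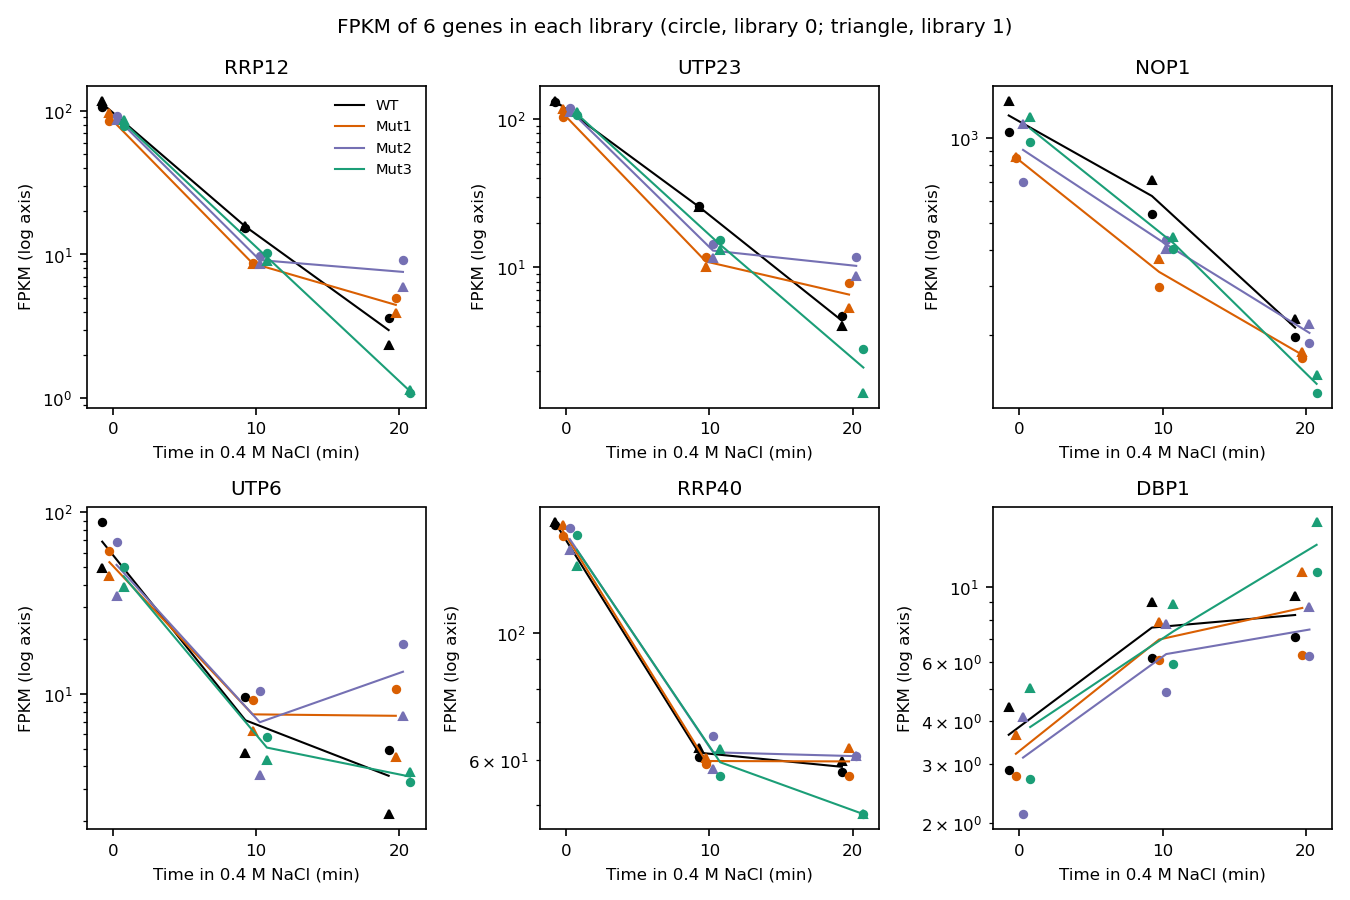
FPKM of RRP12, UTP23, NOP1, UTP6, RRP40 and DBP1 (log y axes) against time in 0.4 M NaCl in min (x axis), with 1 marker per library, circles for library 0 and triangles for library 1, and lines through the mean of the 2 libraries of each strain. At 20 min RRP12 and UTP23 stand in the order Mut3, wild type, Mut1, Mut2 from low to high, and RRP40 lies between 56.3 and 63.1 FPKM outside Mut3. DBP1 alone stands above its values at 0 min, while the mean of UTP6 in Mut2 rises from 10 to 20 min.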

How the data were processed

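The libraries were made from polyadenylated RNA with a stranded mRNA kit, per the labels' protocols. The deposited values are FPKM per feature and library, and per the submitters' processing notes the tools were TopHat2 and Cuffdiff with sacCer3; no versions are stated, and the depth behind an FPKM is unknown. Columns were assigned to groups by name. Their endings 0 and 1 could not be tied to the replicate numbers in the labels.

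From the FPKM, log2(FPKM + 1) was computed for the 6359 features whose mean reached 1 FPKM (767 did not), and the pseudocount makes changes of low genes look smaller. All 24 libraries entered 1 limma fit (limma 3.58.1 in R 4.3.3, trended empirical Bayes) with a mean for each of the 12 groups, and p-values were adjusted by Benjamini and Hochberg over all 6359 features. There were 25 comparisons planned, and 4 of the step from 10 to 20 min were added after seeing the data. On data simulated for the wild type at 10 min, 49 of 100 features changed 2-fold and 85 of 100 changed 4-fold were recovered. There were 6 false calls among the unchanged features of the 6359. Far fewer features changed there than were called in the data, and the noise was drawn independently for each library. The recovered shares may therefore not hold for the data.

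Alternatives were a pseudocount of 0.1, no filter, a mean of at least 5 FPKM, rescaling of libraries by median ratios, the library number as a block, and leaving out each library in turn, where a lone library is assumed to vary like the other groups. The numbers were taken to pair the libraries because same-numbered libraries deviated together in all 66 pairs of groups (correlation 0.23 to 0.601 over tested features, median 0.469). Over the members alone the correlation was higher, 0.526 to 0.92 with a median of 0.809. The fit without the block leaves this shared deviation in the spread within groups, and the SE given are from that fit.

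The 74 members and all gene lists were chosen with earlier results of these data known. Named genes were a panel of known factors, the 2 largest and the smallest change of each role in the wild type at 20 min, members not called lower there or called higher in salt, up to 5 called in each comparison of strains, and, of the other pathway genes, the 2 largest changes of a list and those not called. DBP3, DBP7, NOP6, RRP1, RRP8, RRP9, TRF5, UTP20, UTP25 and the genes named only in counts were chosen after their values were seen. Gene positions, overlaps and upstream sequences come from the reference R64, in which 6079 of 7126 features matched by locus tag or symbol and 7 by synonym. UTP24 is named FCF1 there and is not a member. No member had a near-identical copy (blastn 2.17.0).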

Additional observations from a re-analysis of the deposited data

Results flagged for a closer look

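Differences between strains in the response of single genes were looked at again where the test of the difference itself passed an adjusted p of 0.05 (limma). At 10 min UTP5 changed further than in the wild type in Mut1 (-0.81) and in Mut2 (-0.824), in log2 units here and in what follows.

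From 0 to 20 min the change in Mut2 minus that in the wild type was 0.857 for UTP25, 1.25 for UTP23, 1.28 for UTP4, 1.35 for NOP15, 1.43 for RRP12 and 1.51 for NOG2. For Mut3 minus Mut1 the difference was -1.33 for NOG2, -1.28 for UTP23 and -1.23 for RRP12.

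In the step from 10 to 20 min, tested after the data were seen, Mut1 minus the wild type was 1.16 for UTP5, 1.49 for NOG2 and 1.64 for UTP23. Mut2 minus the wild type was 1.39 for UTP5, 1.48 for UTP4, 1.58 for NOP15, 1.76 for NOG2, 1.82 for RRP12 and 2 for UTP23. For Mut3 minus Mut1 it was -1.64 for UTP23, -1.49 for RRP12 and -1.31 for UTP5. These tests share libraries, and RRP12, UTP23, NOG2, UTP5, UTP4 and NOP15 recur among them. The RNA-gene features summed to 3080 FPKM in library 0 of Mut2 at 20 min, and without it RRP12 (1.15) and NOG2 (1.37) were the members still called between Mut2 and the wild type from 0 to 20 min.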

How the results depend on the processing

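With a pseudocount of 0.1, no filter or the stricter filter, all 29 counts of called members stayed within 1.5 times those reported, and no change of the 29 named members reversed under any alternative run. Rescaling by median ratios moved 7 counts: 5 called (from 9) in the step of Mut1, 1 (from 0) at 0 min in Mut1 and in Mut2, 1 (from 0) for Mut3 minus Mut1 at 10 min, and 1 (from 3) for Mut3 minus Mut1 at 20 min, for the step of Mut3 minus Mut1 and for that of Mut1 minus the wild type.

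With the replicate block, 16 counts rose by over 1.5 times. They became 58 for the step in the wild type, 29 in Mut1 and 28 in Mut2, 3, 7 and 1 at 0 min in Mut1, Mut2 and Mut3, 10 and 7 for Mut1 and Mut2 minus the wild type at 10 min, 8, 37 and 3 for Mut1, Mut2 and Mut3 minus it at 20 min, 24 and 45 for the steps of Mut1 and Mut2 minus it, and 2, 26 and 24 for Mut3 minus Mut1 at 10 min, at 20 min and in the step. The block lost no call of a member and changed no other count by over 1.5 times.

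Leaving out 1 library gave 23 to 31 calls for the step in the wild type, 0 to 7 in Mut1 and 0 to 6 in Mut2, 0 for Mut1 and 0 to 1 for Mut2 minus the wild type at 10 min, 2 to 11 for Mut2 minus it at 20 min, 0 to 4 for Mut3 minus Mut1 at 20 min, and 0 to 2, 4 to 11 and 0 to 3 for the steps of Mut1 and Mut2 minus the wild type and of Mut3 minus Mut1. Counts against 0 min in salt moved little (58 to 63 at 10 min and 71 to 72 at 20 min in the wild type). A lone library leaves fewer samples; otherwise the cause was not tested.

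With 2 libraries a group, 2-fold changes can be missed, and the FPKM give no depth for the low values at 20 min.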
